A study of Mus musculus with 2 samples.

Results

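The 8 liver-enriched transcription factors Hnf4a, Foxa1, Foxa2, Foxa3, Cebpa, Cebpb, Onecut1 and Prox1 were read from 2 microarrays. They were chosen by name, as all spots of the array that are not controls and whose gene name is 1 of the 8, which gave 10 spots of 43020 and 8 genes of 30153. The array labelled MH holds RNA of mature hepatocytes (MHs) from healthy livers, purified on a Percoll gradient. The array labelled Sox9+EpCAM- holds RNA of GFP+EpCAM- cells sorted by FACS from livers of mice fed DDC, a compound that injures the bile ducts. Both groups came from Sox9-EGFP mice, in which GFP marks cells that use the Sox9 gene, and the labels give the sex as male for both. The age of the mice and the number of mice behind each array are not given in the sources used here, and the length of the diet is stated beside the quantitative PCR of such cells, not for the arrays themselves. The study asked how uniform biphenotypic hepatocytes are, and the arrays compare them with MHs. Biphenotypic hepatocytes are cells of injured livers with features of hepatocytes and of bile duct cells.

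Liver-enriched factors are DNA-binding proteins that act together on the promoters and enhancers of hepatocyte genes and on each other's genes. HNF4A is a nuclear receptor required for most of the hepatocyte programme, FOXA1, FOXA2 and FOXA3 are forkhead proteins that open chromatin, and C/EBP alpha and C/EBP beta are leucine zipper proteins that act in metabolism and in the acute phase response. HNF6, the product of Onecut1, acts in hepatocytes and is required for bile duct formation, and PROX1 is a homeodomain protein of hepatocytes and of lymphatic endothelium.

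To show promoter sequence of the members, the 250 bases before a transcription start are given for 4 members, from RefSeq on GRCm38.p6, written 5' to 3' on the strand of the gene. Cebpa, Foxa2 and Foxa3 are shown because they had the lowest differences among the 8 factors, and Hnf4a because it stayed near the middle of all genes. For Hnf4a the downstream of 2 starts is shown, at chr2:163546905-163547154 on the plus strand, and for Foxa2 the most upstream of 3 starts, at chr2:148046970-148047219 on the minus strand. Cebpa is at chr7:35119043-35119292 on the plus strand and Foxa3 at chr7:19023540-19023789 on the minus strand. Capitals mark matches, read on both strands, to the motif GTTAAT in Hnf4a, to the TATA box TATAAA in Cebpa and Foxa3, and to the HNF6 motif ATTGAT in Foxa2.
Hnf4a: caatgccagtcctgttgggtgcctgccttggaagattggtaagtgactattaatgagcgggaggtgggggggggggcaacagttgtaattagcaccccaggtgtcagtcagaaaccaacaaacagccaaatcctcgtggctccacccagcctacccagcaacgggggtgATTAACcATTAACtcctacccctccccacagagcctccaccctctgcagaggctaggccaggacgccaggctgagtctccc
Cebpa: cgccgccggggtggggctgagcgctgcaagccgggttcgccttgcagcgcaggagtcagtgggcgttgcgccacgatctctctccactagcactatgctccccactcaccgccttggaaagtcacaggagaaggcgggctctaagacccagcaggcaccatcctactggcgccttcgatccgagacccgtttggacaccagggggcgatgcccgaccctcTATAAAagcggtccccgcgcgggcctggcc
Foxa3: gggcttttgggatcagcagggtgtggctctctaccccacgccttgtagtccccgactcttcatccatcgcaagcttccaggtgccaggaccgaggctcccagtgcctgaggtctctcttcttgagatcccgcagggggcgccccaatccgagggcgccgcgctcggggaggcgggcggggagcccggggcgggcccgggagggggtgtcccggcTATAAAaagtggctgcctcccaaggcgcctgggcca
Foxa2: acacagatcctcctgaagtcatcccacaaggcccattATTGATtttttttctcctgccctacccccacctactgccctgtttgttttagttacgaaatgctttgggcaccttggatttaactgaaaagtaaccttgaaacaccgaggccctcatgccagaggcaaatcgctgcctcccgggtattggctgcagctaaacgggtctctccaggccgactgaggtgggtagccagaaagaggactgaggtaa

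The Hnf4a window held GTTAAT on the opposite strand at positions -81 and -74 from the start. TATAAA began at -30 in Cebpa and at -36 in Foxa3, and ATTGAT began at -213 in Foxa2. Over the 12 starts of the 8 members, in windows that reach 50 bases past the start, GTTAAT was found in 2, where 7.10% of all 32851 promoter windows of that length hold it. ATTGAT was found in 2 (7.54% of all windows), TGTTTAC, a FOXA motif, in 1 (3.65%) and TATAAA in 5 (13.6%). Besides Cebpa and Foxa3, TATAAA was matched at -34 in Prox1, at -208 in Foxa2 and at 21, past the start, in Cebpb. The Prox1 and Foxa2 matches were on the opposite strand. CAAAGTCC, an HNF4 motif, and TTGCNNAA, a C/EBP motif, were found in 0 (1.42% and 10.8%). The motifs were chosen after the sequences were seen, and a match describes letters only, not binding.

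Each array reads 60-base probes in 1 colour, 1 spot for each of the 10 probes of the members. Well above background were 27523 spots with MH RNA and 32158 with Sox9+EpCAM- RNA, and 0 were saturated. The 75th percentile of the intensity, to which each array was scaled, was 741 and 1110. With 1 array per group there is no SD between mice and no test, so precision is limited by the number of arrays. The error printed after an intensity is that of the scanner software for the spot, and the median SD between repeated spots of a probe was 0.08 on the log2 scale on both arrays. Against the label male, Xist gave 1940 in MHs and 16.1, not well above background, in Sox9+EpCAM- cells. Its other probe gave 3500 and 4.39, the latter not well above background. Of 5 probes to Y-linked genes, 0 were detected in MHs and 4 in Sox9+EpCAM- cells. The sex of the mice, the diet and the mode of isolation therefore cannot be told apart in any difference between the arrays.

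The identity of both samples as hepatocyte RNA was read from 15 hepatocyte markers, which were well above background on both arrays. Their summed intensity was 1222920 in MHs and 755871 in Sox9+EpCAM- cells. Albumin (Alb) was 1.82-fold lower after scaling, whereas Cyp3a11, Cyp1a2 and Cyp2e1, cytochrome P450 enzymes of mature hepatocytes, were 381-fold (788-fold by its other probe), 330-fold and 44.2-fold lower. The highest values of the list were those of Apob (-0.22 on the log2 scale) and of Cyp2d10, another P450 enzyme (11200 and 13200, -0.35), and both were above 0 under quantile normalization. Tat, a tyrosine-degrading enzyme, was 5.51-fold lower and Ass1, a urea cycle enzyme, 4.20-fold lower. In bulk RNA, fewer cells of a type and less RNA per cell cannot be told apart.

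The 8 liver-enriched factors were well above background on both arrays, and 0 of them differed by 4-fold or more in either direction, where 5.96% of 21875 genes with a difference were at least 4-fold lower and 5.98% at least 4-fold higher. At 2-fold, 3 of 8 (37.5%) were lower, Cebpa, Foxa2 and Foxa3, beside 17.9% of all genes, and 0 were higher, beside 15.2%. The median log2 difference of the 8 factors was -0.55, beside -0.19 over the genes measured on both arrays, as the 8 were, and -0.12 over all genes with bounds included. The count at 2-fold was 1 with scaling to Gapdh, where Cebpa alone passed (-1.03), and 1 with quantile normalization, where Foxa2 alone passed (-1.29). That is 12.5% of the 8, beside 2888 of 22276 genes with Gapdh and 18.2% of all genes with quantile normalization, so under these scalings the share of the factors was not above that of all genes. With the median over each gene's probes the count was 2, without Foxa2, or 25% of the 8 beside 17.6% of all genes.

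**Figure D1:**
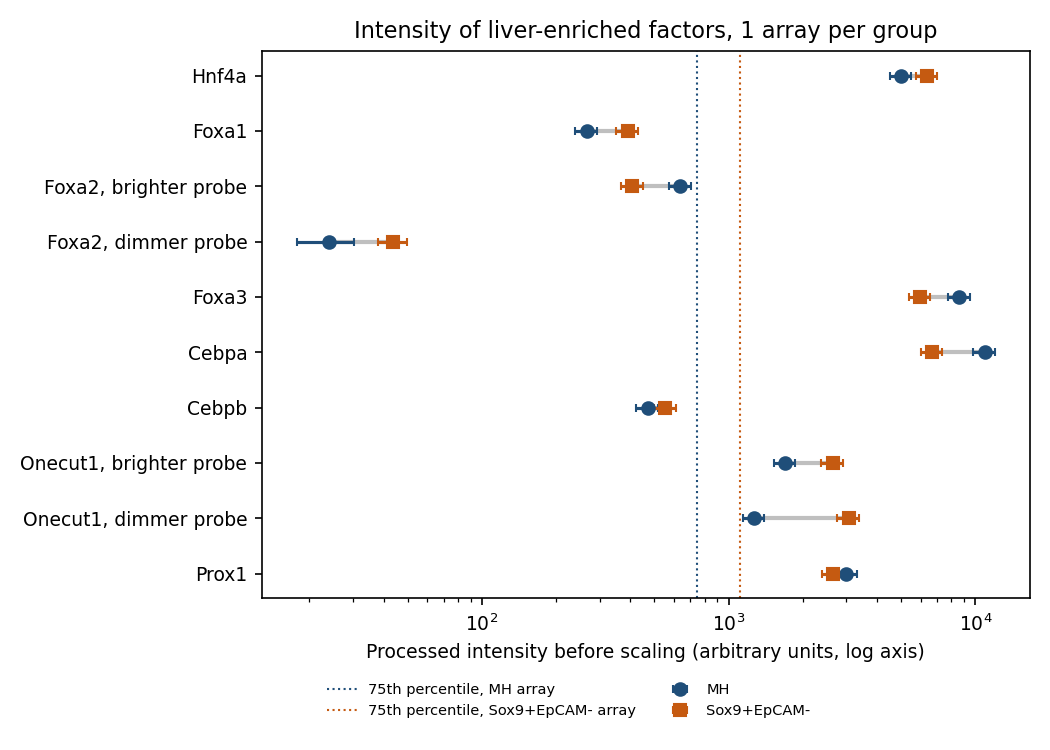
Processed intensity of the 10 probes of the 8 liver-enriched factors on the MH array (circles) and on the Sox9+EpCAM- array (squares), before scaling, on a log axis in arbitrary units. Bars are the scanner software's error of the spot, dotted lines the 75th percentile of each array (741 and 1110), and the brightness of a probe is not to be compared with that of another probe. Cebpa, Foxa3 and the brighter Foxa2 probe were dimmer on the Sox9+EpCAM- array already before scaling, and the dimmer Foxa2 probe was brighter there. Prox1 was dimmer there too, but by less than its error (log2 difference before scaling -0.18 ± 0.20).

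HNF4A binds the promoters of apolipoprotein, clotting factor and P450 genes. Its probe (mm9 chr2:163398548-163398607, plus strand) gave 4990 ± 499 in MHs and 6360 ± 636 in Sox9+EpCAM- cells. The intensity was thus the higher on the Sox9+EpCAM- array, but it grew less than the 75th percentile did. After scaling the log2 difference was -0.23 ± 0.20, or 1.18-fold lower, which is the 48.1st percentile of the 19232 genes measured on both arrays. Over 10 other ways of processing, it lay between -0.41 and 0.06, and it was above 0 under quantile normalization and scaling to Gapdh.

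Of the 3 FOXA paralogs, Foxa1 stood apart from Foxa3 and from the brighter Foxa2 probe. Foxa1 (mm9 chr12:58641764-58641823, minus strand) gave 266 ± 27.3 in MHs and 390 ± 39.2 in Sox9+EpCAM- cells. Its log2 difference was -0.03 ± 0.21, within its own error of 0, and above 0 under scaling to Gapdh. Foxa1 and Foxa2 are both made in the endoderm before the liver forms, and Foxa3 is the paralog with the highest expression in adult liver.

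Foxa2 was read by a pair of probes that share 5 bases of mm9. The brighter probe (chr2:147868669-147868728, minus strand) gave 637 ± 64.0 in MHs and 407 ± 41.0 in Sox9+EpCAM- cells. Its log2 difference was -1.23 ± 0.21, or 2.34-fold lower. The dimmer one (chr2:147868614-147868673, minus strand) gave 24.0 ± 6.23, not well above background, and 43.8 ± 5.82, at least 1.05-fold higher. The lower value of Foxa2 therefore rests on the brighter probe, and the median of both probes was -0.58.

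Foxa3 (mm9 chr7:19599053-19599112, minus strand) gave 8620 ± 862 and 5960 ± 596. Its log2 difference was -1.12 ± 0.20, or 2.17-fold lower, and between -1.29 and -0.77 over the alternatives. Foxa1 exceeded Foxa3 by 1.08 on the log2 scale, a gap that does not depend on the factor by which an array is scaled. Quantile normalization uses no such factor, and under it the gap was smaller, with Foxa1 at -0.12 and Foxa3 at -0.77. Foxa1 exceeded the brighter Foxa2 probe by 1.20, but the median of the Foxa2 probes by 0.55, and the bound of the dimmer Foxa2 probe lay above Foxa1.

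Cebpa encodes C/EBP alpha, which holds hepatocytes out of the cell cycle and drives genes of glucose and urea metabolism. Its probe (mm9 chr7:35906517-35906576, plus strand) gave 10900 ± 1090 in MHs and 6660 ± 666 in Sox9+EpCAM- cells. The log2 difference was -1.29 ± 0.20, or 2.45-fold lower, the lowest of the 8 factors except under quantile normalization, at the 11.7th percentile of measured genes. It stayed below 0 under each of the 10 alternatives, between -1.47 and -0.95.

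Cebpb encodes C/EBP beta, which is induced by cytokines and during regeneration. Its probe (mm9 chr2:167515828-167515887, plus strand) gave 470 ± 47.4 and 554 ± 55.5. The log2 difference was -0.35 ± 0.21, between -0.52 and -0.08 over the alternatives. Cebpa was lower than Cebpb by 0.95 on the log2 scale, so the ratio of Cebpa to Cebpb signal was 1.93-fold lower on the Sox9+EpCAM- array. The gap was smaller under quantile normalization, with Cebpa at -0.95 and Cebpb at -0.40.

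Onecut1 was read by a pair of probes whose starts lie 26481 bases apart in mm9. The brighter probe, on an Ensembl transcript (chr9:74737402-74737461, plus strand), gave 1690 ± 169 in MHs and 2640 ± 264 in Sox9+EpCAM- cells, which put the log2 difference at 0.06 ± 0.20. The other probe, on the RefSeq transcript (chr9:74710921-74710980, plus strand), gave 1270 ± 127 and 3060 ± 306, or 0.69 ± 0.20, which is 1.61-fold higher. This sequence is shown because the higher value of Onecut1 rests on it, with no capitals, and it is open in 1 of 3 forward reading frames.
Onecut1 probe: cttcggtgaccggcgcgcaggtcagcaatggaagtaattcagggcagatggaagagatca

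The 2 Onecut1 probes differed by 0.63 on the log2 scale, and of 3274 genes with 2 measured probes 51.6% had a gap as large or larger, with a median gap of 0.66. The sign of the brighter probe was negative in the deposited table (-0.11).

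Prox1 (mm9 chr1:191945785-191945844, minus strand) gave 3000 ± 300 and 2650 ± 265. The log2 difference was -0.76 ± 0.20, or 1.70-fold lower, between -0.94 and -0.50 over the alternatives. Of the lymphatic endothelial markers, Lyve1 was not well above background on either array, Pdpn was at least 1.77-fold higher, Flt4 2.07-fold higher and Reln 2.16-fold higher. The part of lymphatic cells in the Prox1 value was not tested.

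**Figure D2:**
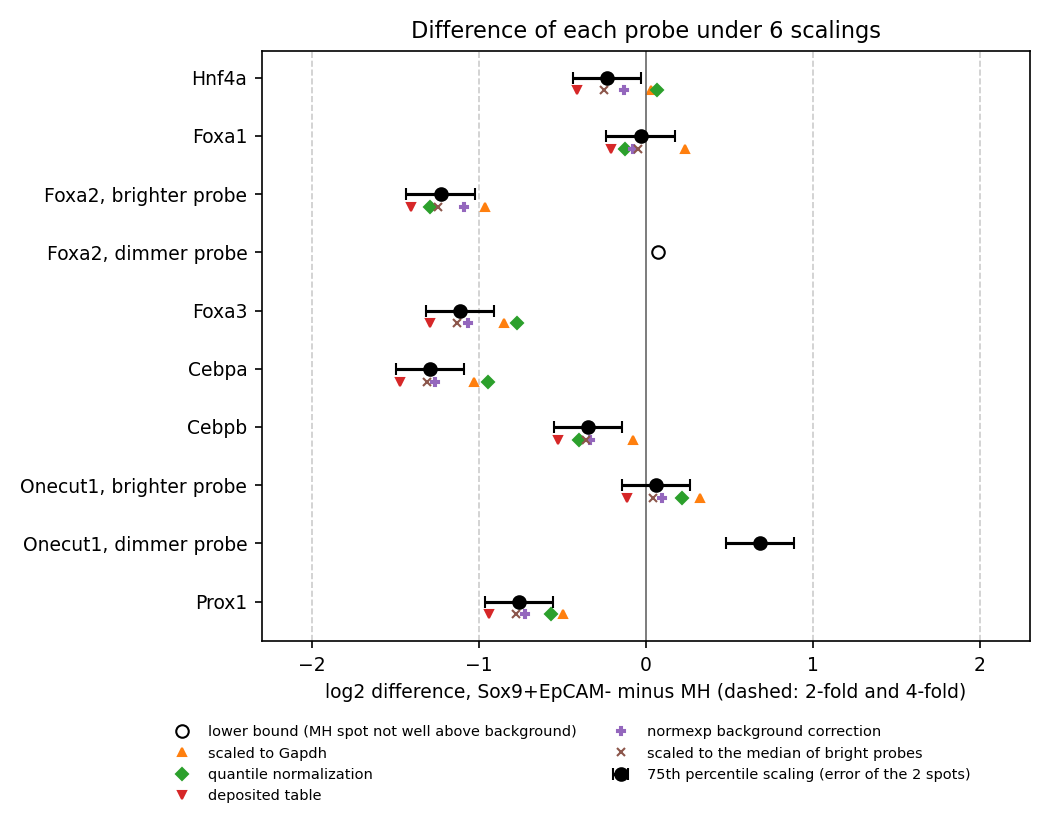
Log2 difference, Sox9+EpCAM- minus MH, for each probe of the 8 liver-enriched factors with 75th percentile scaling (black, bars from the scanner software's error of both spots), and for the brighter probe of each gene under 5 other scalings. The open circle is a lower bound, and dashed lines mark 2-fold and 4-fold. Cebpa, Foxa3, Cebpb, Prox1 and the brighter Foxa2 probe lie below 0 under every scaling drawn, the bound of the dimmer Foxa2 probe lies above 0, and Hnf4a, Foxa1 and Onecut1 lie on both sides of 0.

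Ordered by the difference of the brighter probe from the lowest, the factors were Cebpa, Foxa2, Foxa3, Prox1, Cebpb, Hnf4a, Foxa1 and Onecut1. The gap between neighbours exceeded the error of both differences (0.29) between Foxa3 and Prox1 (0.35) and between Prox1 and Cebpb (0.42), and it was smaller than that error between the other neighbours. Relative to Hnf4a, the signal of Cebpa was 2.09-fold and that of Foxa3 1.84-fold lower in Sox9+EpCAM- cells than in MHs, whatever factor each array was scaled by. For Foxa2 it was 1.99-fold lower by the brighter probe and 1.27-fold by the median of its probes, which would put Foxa2 between Prox1 and Cebpb in the order. These errors describe spots, not mice, and they leave out differences between probes. The median gap between 2 probes of the same gene, 0.66, was larger than the gaps of 0.35 and 0.42.

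Among 25 other transcription factors of hepatocytes, 23 had a difference, with a median of -0.60. Of these, 3 were at least 4-fold lower and 0 at least 4-fold higher. Nr1i3, the xenobiotic receptor CAR, gave 23200 in MHs and 3480 in Sox9+EpCAM- cells and was 9.99-fold lower, or 6.23-fold by its other probe. Klf15, a glucocorticoid-induced factor of amino acid metabolism, gave 764 and 131 and was 8.74-fold lower. Gata4 gave 602 and 181 and was 4.98-fold lower, while its paralog Gata6 gave 936 and 4230 and was 3.02-fold higher, the highest value of the list.

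The 9 transcription factors of bile duct epithelium had a median log2 difference of 2.71, bounds included, and 5 were at least 4-fold higher. The median was 1.93 over those measured on both arrays, 1.96 with normexp background correction and 3.33 without bounds. Hes1, a target of Notch, gave 6.67, not well above background, and 813, at least 19.5-fold higher. Sox4 was 13.1-fold higher, with its other probes at 2.45-fold and 32.4-fold, Grhl1 at least 12.9-fold, Ehf 10.1-fold and Elf3 at least 6.56-fold higher. Sox9 gave 8.87, not well above background, and 60.7, at least 1.45-fold higher. Grhl2 was the only factor of this list below 0, at -1.16, where the chosen probe gave 127 and 85.3. Its other probe, with the lower mean of log2 values, gave 279 and 25.1 and was at -4.06.

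Of 11 bile duct epithelial markers, 10 were well above background in MHs and 11 in Sox9+EpCAM- cells, with summed intensities of 2999 and 56275 of which Spp1 gave 258 and 47000. Spp1 was 122-fold and Epcam 13.3-fold higher, although the sort took EpCAM- cells, and Krt19 was at 0.42 and Krt7 at -0.23 on the log2 scale, the latter above 0 under scaling to Gapdh. The lowest were Aqp1, a water channel (261 and 151, 2.59-fold lower), and Cftr, a chloride channel (69.6 and 52.1), which also reached 2-fold. The part of bile duct cells in the values of the 8 factors was not tested.

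Among 5 other C/EBP family genes, 2 were at least 4-fold higher. Cebpd, an acute phase member, gave 5.63, not well above background, and 363, at least 8.72-fold higher. Ddit3, the stress-induced member CHOP, gave 3130 and 30300, or 6.46-fold higher. Cebpe, Cebpg and Cebpz lay at 0.35, -0.18 and -0.82 on the log2 scale, and Cebpg was above 0 under quantile normalization and scaling to Gapdh. The median of the list was 0.35.

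Beside Cebpd and Ddit3, 11 of 12 immediate early genes were at least 4-fold higher, with a median log2 difference of 4.48. The largest difference was that of Ier3 (47.0 and 11000, 156-fold), followed by Fosb (88.0-fold), Junb (69.4-fold) and Myc (62.8-fold). Fos, Atf3, Egr1, Zfp36, Ier2, Nr4a1 and Jun were between 5.61-fold and 24.4-fold higher, and Dusp1 was 1.52-fold higher. These genes respond quickly to stress and to growth factors, and their part in the C/EBP values was not tested.

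Of 11 coactivators and corepressors of these factors, 1 was at least 4-fold higher, Ep300 (25.4, not well above background, and 192, at least 4.61-fold). The median was -0.14, and it was above 0 under 4 of 10 alternatives. Kdm1a was 3.28-fold higher and Hdac3 2.24-fold lower.

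**Figure D3:**
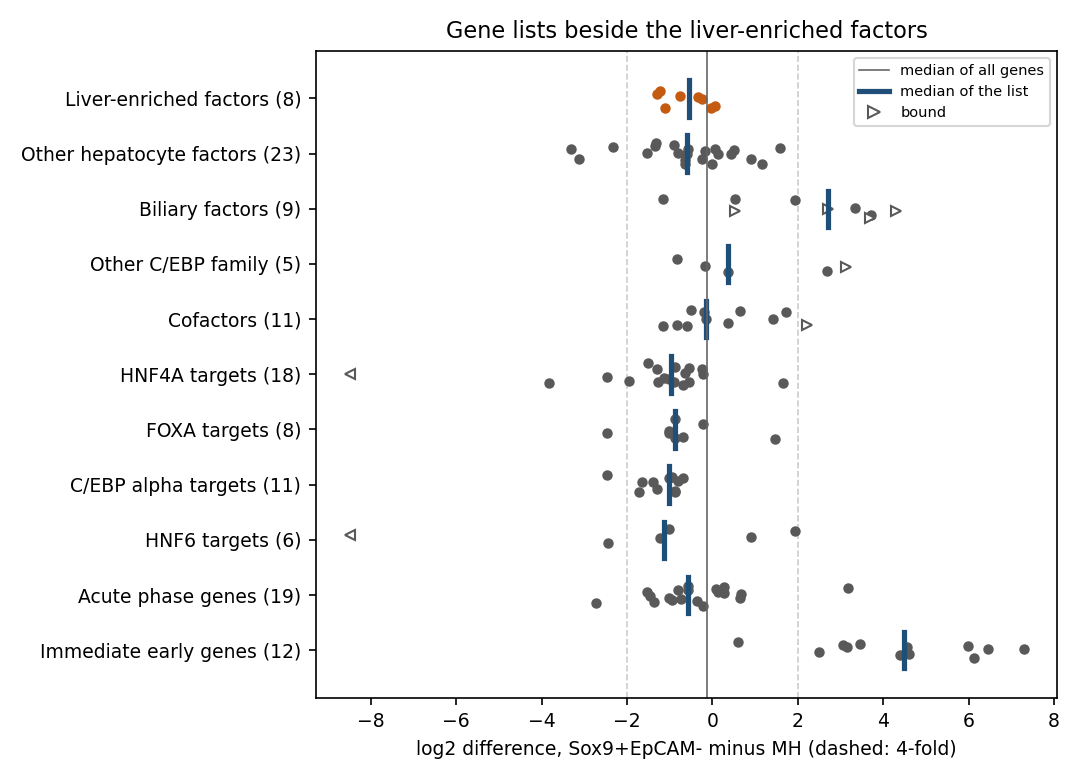
Log2 difference, Sox9+EpCAM- minus MH, of each gene of the 8 liver-enriched factors (orange) and of 10 related lists (grey), with the number of genes that had a difference in brackets. Thick bars are list medians, the thin line is the median of all genes (-0.12), open triangles are bounds, and dashed lines mark 4-fold. The 8 factors lie within 4-fold, biliary factors and immediate early genes reach far to the right, and some targets lie beyond 4-fold to the left.

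The known targets of the factors were read next, in lists from textbook knowledge that share genes such as Ttr, Alb, Pck1 and Tat. Of 18 HNF4A targets, 3 were at least 4-fold lower and 0 at least 4-fold higher, and the median was -0.96. Cyp7a1, the rate-limiting enzyme of bile acid synthesis, gave 4910 and 20.4, not well above background, at least 361-fold lower. Its log2 difference lay between -8.67 and -6.16 over the alternatives that gave one. Cyp8b1, the sterol 12-alpha-hydroxylase, was 14.1-fold lower and Otc, a urea cycle enzyme, 5.56-fold lower. Apoa4 was 3.12-fold higher, and Apob was at -0.22, above 0 under quantile normalization and scaling to Gapdh. The HNF4A targets thus spanned from at least 361-fold lower to 3.12-fold higher beside a difference of -0.23 for Hnf4a itself.

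Of 9 FOXA targets, 8 had a difference, with a median of -0.87, and Afp was not well above background on either array. Tat was the single gene past 4-fold, and Igfbp1, an insulin-suppressed binding protein, was 2.75-fold higher. All 11 C/EBP alpha targets were below 0, as they were under each of the 10 alternatives, with a median of -1.02. A value below 0 was not particular to this list. All 15 hepatocyte markers, some of them shared with it, were also below 0, with a median of -1.27. Under the alternatives at least 12 of these markers were below 0. Of the 18 HNF4A targets 17 were below 0, and at least 14 under the alternatives. The median of all genes was -0.12. Among the C/EBP alpha targets the lowest value was that of Tat. It was followed by Cps1, the first enzyme of the urea cycle (82800 and 37500, 3.31-fold lower), and Adh1 (42200 and 20000, 3.16-fold lower). Pck1 and G6pc, which act in gluconeogenesis, were 1.62-fold and 1.83-fold lower.

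Of 6 HNF6 targets, 2 were at least 4-fold lower, among them Cyp7a1, and the median was -1.12. Foxa2 is on this list too. Slc2a2, the hepatocyte glucose transporter, gave 5290 in MHs and 14700 in Sox9+EpCAM- cells, or 1.86-fold higher. The targets of HNF6 were therefore on both sides of 0.

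Of 19 acute phase genes, on which C/EBP beta and C/EBP delta act, 1 was at least 4-fold lower and 1 at least 4-fold higher, and the median of -0.58 was 0.018 under quantile normalization. Saa4 gave 39900 and 9050, or 6.60-fold lower, and Lcn2 gave 548 and 7360, or 8.97-fold higher. Haptoglobin (Hp) was 1.57-fold higher, and Orm1, Orm2 and Orm3 were 2.60-fold to 2.89-fold lower.

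Markers of other cells moved with the groups as well. Of 14 leukocyte and macrophage markers on the array, 12 were well above background on each, with summed intensities of 117242 in MHs and 102407 in Sox9+EpCAM- cells. Most of both sums came from 1 probe each of Itgam (92100 and 84700) and Csf1r (12200 and 13700), and without these the sums of the other 12 were 12942 and 4007. The other Itgam probes gave 145 and 215, and 175 and 339, and those of Csf1r gave 1420 and 326, or 6.52-fold lower, and 358 and 330. Emr1 was 20.2-fold (at least 12.7-fold by its other probe), Cd74 8.38-fold, C1qb 6.89-fold, C1qc at least 6.76-fold and Lyz2 6.23-fold lower, and Cd68 was 14.4-fold higher (5.67-fold by its other probe). Of 8 blood endothelial markers, 7 and 5 were well above background, with sums of 5344 and 2329 and a median of -3.04. Oit3 was at least 17.8-fold, Clec4g 11.7-fold, Cdh5 at least 8.39-fold, Tek 8.20-fold and Stab2 8.09-fold lower, with the other Stab2 probes at 3.32-fold and at least 7.56-fold.

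Of 10 mesenchymal markers, 8 were well above background on each array, with sums of 9508 and 50303. Col3a1 was 85.1-fold, Col1a1 21.3-fold and Col1a2 15.4-fold higher, Lrat was at least 7.70-fold lower, and Pdgfrb was not well above background on either. Of 5 proliferation markers, 2 were well above background in MHs and 4 in Sox9+EpCAM- cells. Mki67 gave 20.0, not well above background, and 119, at least 2.86-fold higher, and Top2a gave 6.97, not well above background, and 28.5. The median of the 3 with a difference was -0.17, and above 0 under scaling to Gapdh. The part of any of these cells in the values of the 8 factors was not tested.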

How the data were processed

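Total RNA of 1 MH and 1 Sox9+EpCAM- sample was labelled with Cy3 by a service provider and hybridised to Agilent mouse arrays. The authors deposited spot intensities from Feature Extraction 10.7.3.1, background-subtracted and not normalized between arrays, and a table of the same intensities as a ratio to each array's median (SD of the log2 factor 0.0018 on each array). The deposited error of each spot comes from that software's error model. The array design gives mm9 coordinates.

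The log2 intensity of each spot was set relative to its array's 75th percentile. Control and 276 outlier spots were left out, 0 of them of the members, and 39390 probes remained. The probe with the highest mean stood for its gene. A probe not well above background on 1 array entered as a bound, taken from its signal there or, if higher, the dimmest signal that was well above background (27.8 for MHs, 18.4 for Sox9+EpCAM- cells). Bounds under 1-fold gave no difference. Sizes were read at 4-fold, then 2-fold. Named genes are the 8 members and the label check genes, and from each other list those past 4-fold and the 2 highest and 2 lowest differences, with some more named after their values were seen and a few not reported here. Members and lists were chosen with earlier results of these data known. Alternatives were normexp (limma 3.58.1, R 4.3.3, offset 50), 3 other scalings, the deposited table, other probe and spot rules, and thresholds of 2-fold and 10-fold. A value had moved when it changed by over 1.5-fold. Python 3.11.15, numpy 2.4.6 and pandas 2.3.3 were used, and the procedure was tested on simulated data.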

Additional observations from a re-analysis of the deposited data

Results flagged for a closer look

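Xist, which is outside the comparison of the 8 factors, differed between the arrays although the labels give both samples as male. The probe that stood for it gave 1940 in MHs and 16.1, not well above background, in Sox9+EpCAM- cells, so the log2 difference is -7.30 or lower. Its other probe gave 3500 and 4.39, the latter not well above background, or -8.15 or lower. Of 5 probes to 4 Y-linked genes, 4 were detected in Sox9+EpCAM- cells and 0 in MHs.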

How the results depend on the processing

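With 10 alternatives, 78 of 80 differences of the 8 factors changed by no more than 1.5-fold, and 2 moved. Foxa2 was -0.58 as the median of its probes, and Onecut1 was 0.69 by the probe with the largest difference. Of 44 counts 41 stayed within 1.5 times, and none of the 8 factors passed 4-fold under any of the 10. The factors at least 2-fold lower numbered 3, beside 17.9% of all genes. They numbered 1 with quantile normalization (18.2% of all genes), 1 with scaling to Gapdh (13%) and 2 with the median over each gene's probes (17.6%). A 2-fold in place of a 4-fold threshold gave 3 lower in place of 0. Of 170 list medians 163 stayed. The median of the biliary factors was 1.96 with normexp, 3.33 without bounds and 1.93 for genes above background on both arrays. With normexp the endothelial median was -2.23 and the lymphatic one 0.19, with quantile normalization the acute phase median was 0.018, and with the largest-difference probes the cofactor median was 0.71. Of the listed genes past 4-fold, Cebpd (1.87), Elf3 (1.48), Ep300 (0.87), Gata4 (-1.98), Tat (-1.97), Ass1 (-1.58), C1qc (-1.57), Cdh5 (-1.67), Lrat (-1.75) and the Y-linked Uty (0.77) fell short of it under at least 1 alternative, by the log2 differences given. The cause was not tested.

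Scaling to Gapdh moved each difference by 0.27 and the deposited table by -0.18. The genes at least 4-fold lower and higher numbered 1304 and 1309, against 1006 and 1650 with Gapdh, 1563 and 1130 in the deposited table, 660 and 612 with normexp, and 914 and 758 for genes above background on both arrays. No paired analysis was possible because MHs and Sox9+EpCAM- cells have 1 array each, nor a fit without a replicate or with the slide as a block. The lowest signal well above background (27.8 and 18.4) limits dim probes.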
